A study of Mus musculus with 24 samples.

Results

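Messenger RNA of 33 marker genes of microglia and brain macrophages was followed in the brain of mice labelled as double knockouts of 2 pantothenate kinases. The 33 genes, of 50686 counted, form a written list of markers with no threshold on measured values. The list was chosen with earlier results of these data known and is not independent of them. The genes were paired with Ensembl identifiers through the GENCODE annotation, each with a single identifier. They were split by role into 9 receptors and surface proteins of homeostatic microglia (P2ry12, P2ry13, Gpr34, Cx3cr1, Fcrls, Tmem119, Siglech, Selplg and the transporter gene Slco2b1), 3 genes for other homeostatic products (Sall1, Olfml3 and Hpgds), 4 genes of CSF1R and TREM2 signalling, 3 complement C1q subunits, 10 general myeloid genes, and 4 genes of border macrophages or lysozyme. The libraries came from tissue labelled as back left brain of mice on the C57BL/6 background. Double knockout animals, labelled Pank1-/-Syn-Pank2-/- and abbreviated dKO, were compared with WT animals at day 10 and at day 20, in females and males, with 3 libraries for each of the 8 groups. Pank1 and Pank2 encode pantothenate kinases, which start coenzyme A synthesis, and the series models pantothenate kinase-associated neurodegeneration. What the element Syn in the genotype name denotes is not given in the sources used here. Nothing in the labels ties the 3 libraries of a group to separate animals; p-values here reflect only how far these libraries varied, which could be technical.

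Microglia are the resident macrophages of the brain parenchyma. They depend on the receptor CSF1R for survival, and in the healthy brain they carry a set of surface receptors, among them the ADP receptor P2ry12 and the fractalkine receptor Cx3cr1, with which they survey neurons and vessels. Microglia that leave this homeostatic condition are known to lower these receptors while keeping genes shared with other myeloid cells. In RNA from whole tissue, fewer cells of a type and less RNA per cell cannot be told apart.

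Promoters of 25 members, at 31 start sites, were read from the RefSeq table on build GRCm38.p6, each spanning 250 bases before to 50 bases after the start. They were searched on both strands for GAGGAA, whose reverse complement reads TTCCTC, a core of the sites bound by PU.1, the myeloid transcription factor that the member Spi1 encodes, and for the longer GAGGAAGT (ACTTCCTC), whose matches are all matches of the shorter motif too. The shorter motif was present at 19 of the 31 member start sites (61.3%), against 28.3% of all 32851 promoters of that length. The longer one was present at 5 of 31 (16.1%), against 3.20% of all. The promoters of P2ry12 and Fcrls, the receptor genes with the greatest falls at day 20, of Pf4, which also fell, and of C1qb and C1qc, whose levels were not called different, are shown 5′ to 3′ along each gene's own strand, with GAGGAA or TTCCTC in capitals. P2ry12 lies on the minus strand at chr3:59262936-59263235, Fcrls on the minus strand at chr3:87263475-87263774, Pf4 on the plus strand at chr5:90772185-90772484, C1qb on the minus strand at chr4:136886151-136886450 and C1qc on the minus strand at chr4:136892865-136893164.
P2ry12: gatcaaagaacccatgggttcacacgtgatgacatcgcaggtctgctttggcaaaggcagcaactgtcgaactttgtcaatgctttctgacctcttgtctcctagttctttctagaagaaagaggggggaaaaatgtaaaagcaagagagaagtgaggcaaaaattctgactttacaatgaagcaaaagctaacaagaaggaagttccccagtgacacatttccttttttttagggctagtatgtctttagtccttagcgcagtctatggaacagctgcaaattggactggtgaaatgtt
Fcrls: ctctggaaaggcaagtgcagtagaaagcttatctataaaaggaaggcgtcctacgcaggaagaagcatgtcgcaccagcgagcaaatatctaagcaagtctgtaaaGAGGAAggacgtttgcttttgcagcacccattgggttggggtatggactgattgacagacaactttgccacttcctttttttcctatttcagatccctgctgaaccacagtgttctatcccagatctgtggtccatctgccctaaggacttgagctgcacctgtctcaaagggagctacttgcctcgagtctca
Pf4: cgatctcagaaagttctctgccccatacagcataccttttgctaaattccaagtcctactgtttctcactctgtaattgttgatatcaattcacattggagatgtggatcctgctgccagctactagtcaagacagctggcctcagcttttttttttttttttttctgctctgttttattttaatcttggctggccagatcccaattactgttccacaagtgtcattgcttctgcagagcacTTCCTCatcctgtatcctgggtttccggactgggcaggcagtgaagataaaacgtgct
C1qb: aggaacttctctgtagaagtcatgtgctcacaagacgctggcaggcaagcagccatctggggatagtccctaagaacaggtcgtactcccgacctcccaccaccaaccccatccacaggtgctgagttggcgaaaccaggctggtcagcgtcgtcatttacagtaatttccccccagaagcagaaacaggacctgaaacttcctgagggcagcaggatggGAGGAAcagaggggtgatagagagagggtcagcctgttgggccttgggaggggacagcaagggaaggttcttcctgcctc
C1qc: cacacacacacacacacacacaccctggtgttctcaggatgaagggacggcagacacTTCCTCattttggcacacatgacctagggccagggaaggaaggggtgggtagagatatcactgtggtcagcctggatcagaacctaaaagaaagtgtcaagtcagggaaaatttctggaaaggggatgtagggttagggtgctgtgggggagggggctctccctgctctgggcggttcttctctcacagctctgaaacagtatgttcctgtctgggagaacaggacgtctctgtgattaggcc
Fcrls, C1qb, C1qc and Pf4 each held 1 match in this window, and C1qc and Pf4 also matched the longer motif. P2ry12 held none, as did Cx3cr1, Sall1, Olfml3 and Ly86 among the genes that fell and Lyz2 among those that rose. The motif was therefore present in promoters of genes that fell and of genes that did not, and a match describes letters in the window only.

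Total gene counts ranged from 9191988 to 44738612 in 23 libraries. Levels are given as CPM, counts per 1000000 gene counts after scaling. Before that scaling, a single count equals 0.0224 to 0.109 CPM. The third dKO male library of day 10 held 45964 gene counts and was left out, and replicate numbers, given here in the order of deposit, only name libraries. So dKO at day 10 is represented by 5 libraries and every other combination of genotype and day by 6. All 33 members passed the filter on low counts and were tested among 21657 genes. Pank1 was at 19.5 to 26.7 CPM in the 12 WT libraries and 6.71 to 8.87 CPM in the 11 dKO libraries. Pank2 overlapped between genotypes at day 10 (46.3 to 56.3 CPM in WT, 44.6 to 52.1 CPM in dKO) and was lower in every dKO library at day 20 (38.5 to 46.3 CPM against 52.6 to 61.3 CPM in WT). At day 20 summed CPM of 10 hindbrain genes was 1571 to 2186 in WT and 1895 to 2111 in dKO, and at day 10 it was 987 to 2385 in WT and 384 to 1539 in dKO; the part of this regional spread in the day 10 results was not tested.

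In WT brain at day 20 the members were led, per kilobase of exon, by C1qa (10.6 ± 1.12 CPM per kilobase, SD, n = 6) and C1qb (9.67 ± 0.895 CPM per kilobase), followed by Csf1r (8.62 ± 0.765 CPM per kilobase) and P2ry12 (6.77 ± 0.520 CPM per kilobase). C1qa and C1qb did not differ beyond their spread. In dKO at day 20 C1qa and C1qb still ranked first and second and C1qc moved from the 6th to the 3rd place, whereas P2ry12 went from rank 4 to 13 and Fcrls from rank 8 to 23. The lowest levels per kilobase in WT belonged to Itgam, Irf8 and Cd163, at 0.397, 0.423 and 0.452 CPM per kilobase.

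At day 20, dKO brain had lower levels of 20 of the 33 members and higher levels of 2. Among all 21657 genes tested, 19.5% were called lower and 19.4% higher in the same comparison. Since the members were chosen with earlier results of these data known, these shares are set beside their counts for description only. Calls here and below are at an adjusted p under 0.05 in edgeR's quasi-likelihood test, with Benjamini-Hochberg adjustment over all genes tested. The median log2 change of the members was -0.58, against -0.00 over all genes tested. The 6 dKO libraries did not overlap the 6 WT libraries for 12 members that were lower and 1, Lyz2, that was higher; over all genes 10.3% separated with dKO lower and 9.79% with dKO higher.

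**Figure D1:**
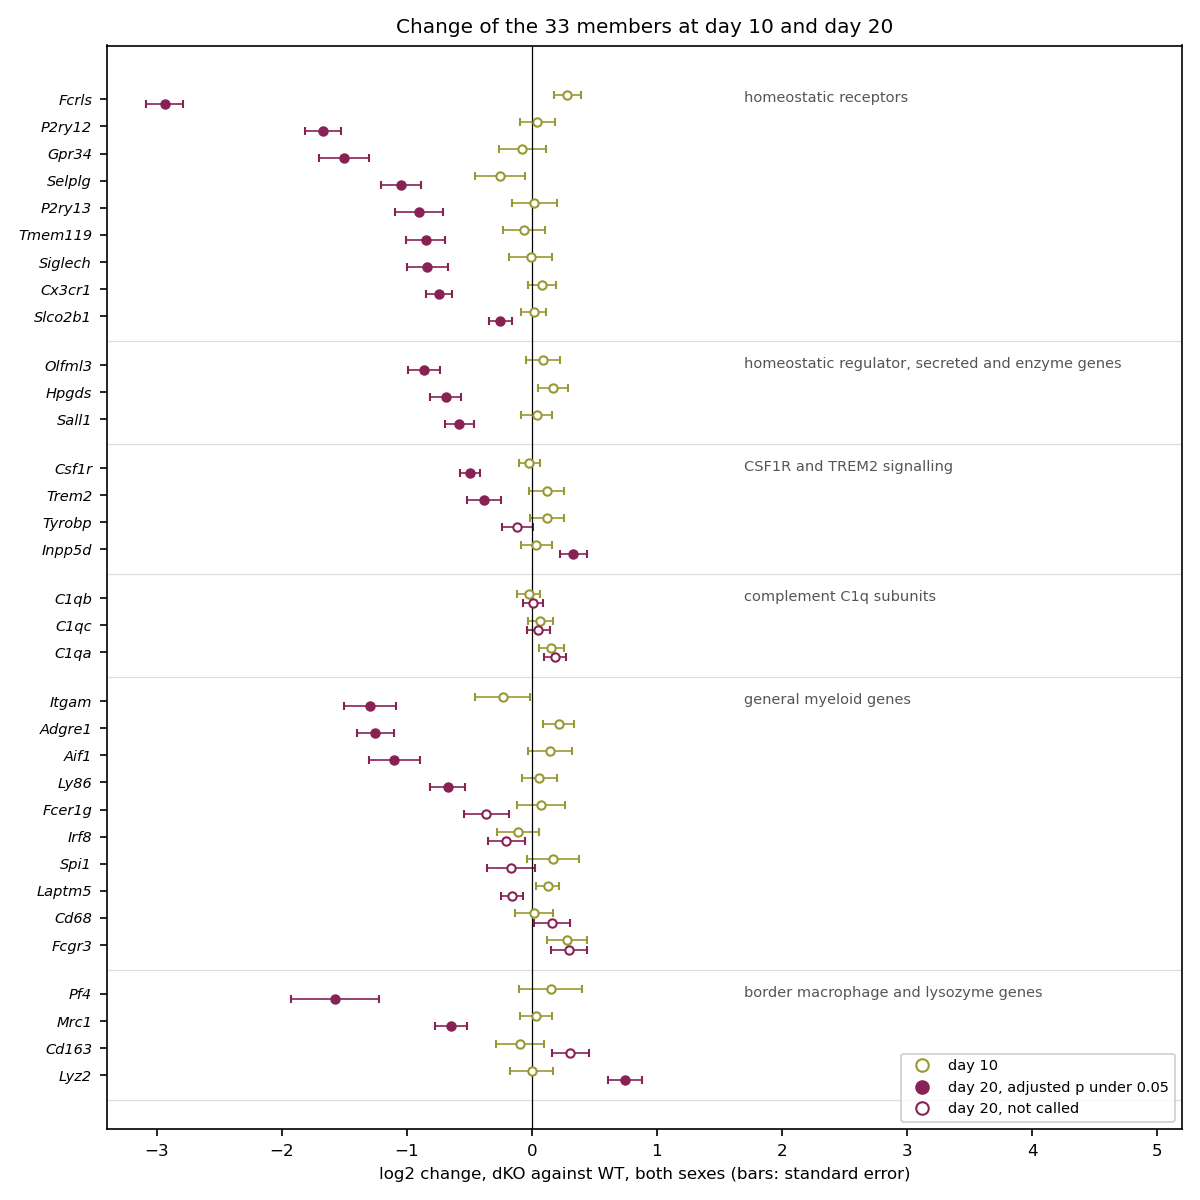
Log2 change of dKO against WT over both sexes (horizontal axis) for the 33 members grouped by role (vertical axis), at day 10 and day 20, with standard errors; filled points passed an adjusted p under 0.05. At day 20 all 9 homeostatic receptors lie left of 0, from -2.93 to -0.25, while the 3 C1q subunits lie between 0.01 and 0.18.

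All 9 homeostatic receptor genes fell at day 20, with a median log2 change of -0.90. Fcrls (ENSMUSG00000015852, chromosome 3, 87250758 to 87263738, minus strand, GRCm38), a scavenger receptor related to Fc receptors and used as a microglial marker in mice, was at 8.86, 9.61 and 12.5 CPM (lowest, median and highest) in WT and at 0.634, 1.35 and 3.03 CPM in dKO. Every dKO library was far below every WT library. Its fitted level was 13.1% of WT (log2 change -2.93 ± 0.15 SE, adjusted p = 4.96e-12), the greatest fall among the members. P2ry12 (ENSMUSG00000036353, chromosome 3, 59216272 to 59262871, minus strand) had 15.9, 17.0 and 18.8 CPM in WT and 3.67, 4.95 and 8.96 CPM in dKO. The genotypes did not overlap, and the fitted level was 31.4% of WT (log2 change -1.67 ± 0.14, adjusted p = 2.06e-08).

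Gpr34, a receptor for lysophosphatidylserine, was at 3.59, 4.81 and 5.50 CPM in WT and 0.634, 1.45 and 3.42 CPM in dKO. The highest dKO library stayed just under the lowest WT library, and the fitted level was 35.3% of WT (log2 change -1.50 ± 0.20, adjusted p = 4.77e-06). Cx3cr1, at 18.2, 20.8 and 22.9 CPM in WT and 7.06, 12.3 and 17.3 CPM in dKO, also separated the genotypes, with a smaller log2 change of -0.74 ± 0.11 (adjusted p = 1.11e-05). Among the other receptors, Siglech, a sialic acid-binding lectin, fell by 0.84 on the log2 scale without overlap of libraries. Selplg, the selectin ligand PSGL, fell by 1.05, P2ry13, a second ADP receptor, by 0.90, and Tmem119, a transmembrane protein used to mark microglia, by 0.85, each with 5 of 6 dKO libraries below the lowest WT library. Slco2b1, an organic anion transporter gene, had the smallest change (-0.25 ± 0.09, adjusted p = 0.0319). Its call was lost without dKO female replicate 1 (log2 change -0.22), dKO male replicate 1 (-0.22), dKO male replicate 3 (-0.23), WT female replicate 2 (-0.23) or WT male replicate 2 (-0.20), all of day 20.

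**Figure D2:**
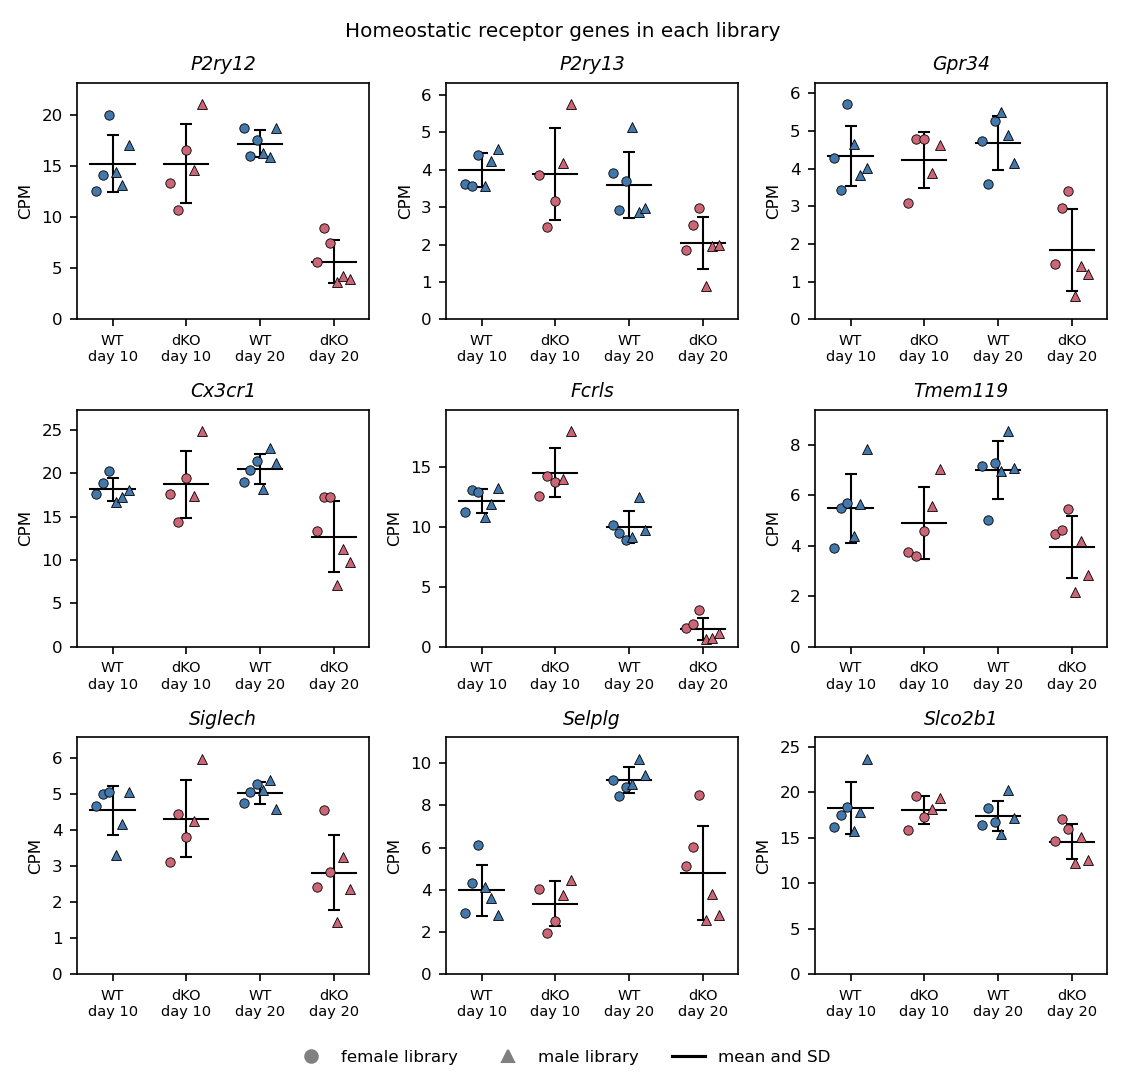
CPM (vertical axis) of the 9 homeostatic receptor genes in each of the 23 libraries by genotype and day (horizontal axis); circles are female and triangles male libraries, and lines give mean and SD. At day 20 Fcrls, P2ry12, Gpr34, Cx3cr1 and Siglech separate dKO from WT, and at day 10 the genotypes overlap for all 9.

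The 3 other homeostatic genes fell as well, each with no overlap between genotypes. Olfml3, which encodes a secreted glycoprotein, was at 7.66, 9.60 and 12.2 CPM in WT and 3.73, 5.32 and 6.45 CPM in dKO (log2 change -0.86 ± 0.13, adjusted p = 1.88e-05). Hpgds, which encodes the hematopoietic prostaglandin D synthase, was at 4.69, 5.04 and 5.39 CPM in WT and 2.67, 3.07 and 3.84 CPM in dKO (log2 change -0.69 ± 0.12, adjusted p = 0.000140). Sall1, a transcription factor that maintains microglial identity, fell by 0.58 ± 0.11 (adjusted p = 0.000398). The Hpgds call was lost when both strands were counted together (log2 change -0.17).

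Reads on the strand opposite to Hpgds were 95.5% as many as those on its own strand over the 23 libraries, and their level at day 20 was 4.65 ± 0.63 CPM in WT and 5.59 ± 1.27 CPM in dKO (SD, n = 6 each). P2ry13 and Gpr34 lie on the strand opposite to Med12l and Cask, with opposite-strand reads at 112% and 69.0% of their own. For Cd163, Csf1r and Aif1 the opposite-strand reads were 55.36%, 19.63% and 14.75% of the own-strand reads. At P2ry12, which also lies opposite Med12l, opposite-strand reads at day 20 were at 3.90 ± 0.60 CPM in WT and 3.35 ± 0.42 CPM in dKO, while own-strand reads went from 17.2 ± 1.32 to 5.67 ± 2.14 CPM. The own-strand fall of P2ry12 was thus not accompanied by a fall of like size on the other strand. With both strands counted together P2ry12 still fell, by 1.34, and P2ry13 by 0.50.

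The genes of CSF1R and TREM2 signalling moved less. Csf1r, the receptor for the growth factors CSF1 and IL34, was at 45.1, 49.5 and 57.2 CPM in WT and 27.5, 33.8 and 45.6 CPM in dKO. All dKO libraries but 1 lay below the lowest WT library, and the log2 change was -0.49 ± 0.08 (adjusted p = 5.16e-05). Inpp5d, which encodes the phosphatase SHIP that restrains receptor signalling, was higher in dKO: 7.98, 8.84 and 11.8 CPM in WT against 9.66, 11.4 and 13.1 CPM (log2 change 0.33 ± 0.11, adjusted p = 0.0189). Its groups overlapped through WT male replicate 2. Trem2, a lipid-sensing receptor, fell by 0.38 ± 0.14 (adjusted p = 0.0311), and the gene of its adaptor Tyrobp had a log2 change of -0.12 ± 0.12 (adjusted p = 0.490). The Inpp5d call was lost without dKO female replicate 2 (0.30), dKO male replicate 2 (0.29), WT male replicate 1 (0.31) or WT male replicate 3 (0.28) of day 20. That of Trem2 was lost without dKO female replicate 1 (-0.36), dKO female replicate 3 (-0.37), dKO male replicate 2 (-0.28), WT female replicate 2 (-0.35), WT female replicate 3 (-0.35) or WT male replicate 1 (-0.37).

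None of the 3 C1q subunit genes was called at day 20. Their products assemble into the first component of the classical complement pathway, which microglia supply in the brain, and the genes lie side by side on chromosome 4. C1qa was at 9.79, 10.9 and 13.1 CPM in WT and 10.5, 12.3 and 14.5 CPM in dKO (log2 change 0.18 ± 0.09, adjusted p = 0.111). C1qc was at 10.4, 11.8 and 12.3 CPM in WT and 10.2, 12.3 and 13.7 CPM in dKO (log2 change 0.05 ± 0.09, adjusted p = 0.708). C1qb had a log2 change of 0.01 ± 0.08 (adjusted p = 0.920). The genotypes overlapped for all 3 subunits. None of the 3 had an unadjusted p under 0.05 in edgeR, and DESeq2 called none of them. When only the day 20 groups entered the fit, C1qa was called higher (0.19).

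Of the 10 general myeloid genes, 4 fell and 6 were not called, with a median log2 change of -0.28. Adgre1, which encodes a surface antigen widely used to mark macrophages, was at 3.14, 3.995 and 4.67 CPM in WT and 1.17, 1.50 and 2.48 CPM in dKO (log2 change -1.25 ± 0.15, adjusted p = 8.76e-07). Itgam, the integrin alpha chain of complement receptor CR3, was at 1.52, 2.04 and 2.35 CPM in WT and 0.453, 0.780 and 1.16 CPM in dKO (log2 change -1.30 ± 0.21, adjusted p = 3.83e-05). Neither gene had overlapping genotypes, and both had a larger log2 fall than 6 of the 9 homeostatic receptors. Aif1, which encodes the calcium-binding protein known as the microglial stain Iba, was at 0.831, 1.48 and 1.75 CPM in WT and 0.407, 0.685 and 0.921 CPM in dKO (log2 change -1.10 ± 0.20, adjusted p = 0.000184). Ly86, the partner of the toll-like receptor relative RP105, was at 2.84, 3.16 and 3.80 CPM in WT and 1.79, 2.02 and 2.44 CPM in dKO, again without overlap (log2 change -0.67 ± 0.14, adjusted p = 0.000501).

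The 6 general myeloid genes that were not called included both transcription factor genes and both lysosomal genes of the group. Spi1 had a log2 change of -0.17 ± 0.19 (adjusted p = 0.524) and Irf8 of -0.20 ± 0.15 (adjusted p = 0.310). Laptm5, a lysosomal membrane protein gene, was at 9.87 ± 0.655 CPM in WT and 8.83 ± 0.654 CPM in dKO (SD, n = 6 each; log2 change -0.16), and Cd68 had a log2 change of 0.16. The Fc receptor genes Fcer1g (-0.36) and Fcgr3 (0.30) had changes of opposite sign, and Fcgr3 was called higher (0.30) when only the day 20 groups were fitted. A p that misses the threshold does not show that these levels were alike.

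Summed over the group, the homeostatic receptors were at 89.1 to 104 CPM in the WT libraries of day 20 and at 31.3 to 66.9 CPM in dKO, with no overlap. The general myeloid genes summed to 31.4 to 36.7 CPM in WT and 24.3 to 31.5 CPM in dKO, and the C1q subunits to 29.7 to 37.1 CPM in WT and 31.2 to 38.2 CPM in dKO. To set receptors against general myeloid genes within a library, the mean log2 CPM of the 10 general genes was subtracted from that of the 9 receptors. This difference was 1.62 ± 0.13 (SD, n = 6; 1.45 to 1.77) in WT at day 20 and 0.88 ± 0.36 (n = 6; 0.33 to 1.24) in dKO, so every dKO library was below every WT library. At day 10 it was 1.43 ± 0.15 (n = 6) in WT and 1.37 ± 0.20 (n = 5) in dKO, and the genotypes overlapped. No test was made of this summary, since its members were chosen with results of these data known.

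**Figure D3:**
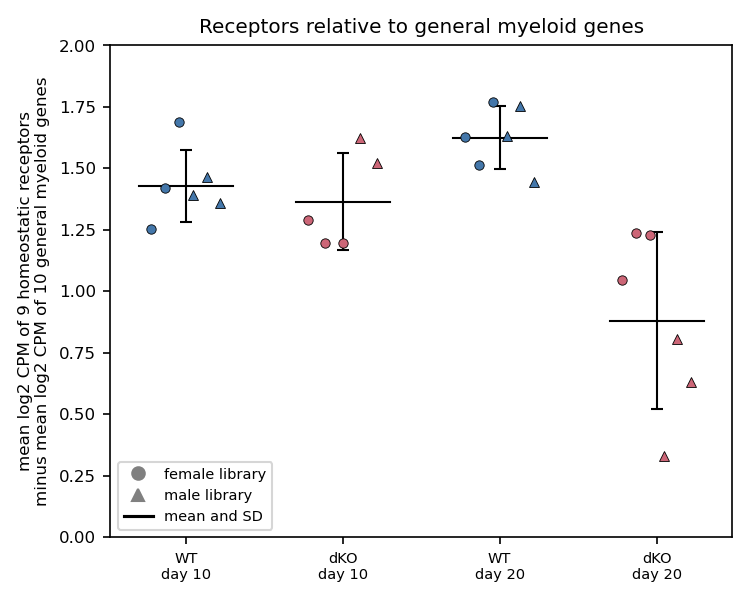
Mean log2 CPM of the 9 homeostatic receptors minus that of the 10 general myeloid genes (vertical axis) in each library by genotype and day (horizontal axis); circles are female and triangles male libraries, and lines give mean and SD. The 6 dKO libraries of day 20 lie between 0.33 and 1.24, below the WT libraries of that day at 1.45 to 1.77.

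The 4 border macrophage and lysozyme genes split. Mrc1, the mannose receptor gene of perivascular and meningeal macrophages, fell: WT libraries were at 8.84, 9.50 and 11.8 CPM and dKO libraries at 4.26, 6.74 and 7.70 CPM (log2 change -0.65 ± 0.13, adjusted p = 0.000459), without overlap. Pf4, a chemokine gene of border macrophages and platelets, was low in both genotypes, at 0.334, 0.621 and 0.931 CPM in WT and 0.0777, 0.200 and 0.395 CPM in dKO (log2 change -1.57 ± 0.35, adjusted p = 0.00119). Lyz2, the lysozyme gene of myeloid cells, rose: WT libraries were at 2.58, 3.73 and 4.27 CPM and dKO libraries at 4.47, 6.37 and 7.55 CPM (log2 change 0.75 ± 0.14, adjusted p = 0.000146), and every dKO library was above every WT library. Cd163, a scavenger receptor gene for hemoglobin and haptoglobin, had a log2 change of 0.31 ± 0.15 (adjusted p = 0.105). It was called higher without dKO female replicate 1 of day 20 (0.39).

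Markers of blood and vessels moved at day 20 too. All 8 erythroid genes fell, with a summed level of 321 to 678 CPM in WT and 76.0 to 131 CPM in dKO, and 7 of 10 endothelial genes fell, with sums of 334 to 354 and 260 to 318 CPM. Of 20 monocyte, neutrophil and lymphocyte genes only 6 were abundant enough to test; 1 of them, Chil3, rose, and the list summed to 2.78 to 6.77 CPM in WT and 2.52 to 4.53 CPM in dKO. The T cell gene Cd3e was at 0 to 0.0462 CPM in WT and 0 to 0.0388 CPM in dKO, and the monocyte receptor gene Ccr2 at 0.208 to 0.449 and 0 to 0.263 CPM. Whether the erythroid and endothelial falls had a part in the results for Lyz2, Pf4, Mrc1 or the microglial genes was not tested.

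**Figure D4:**
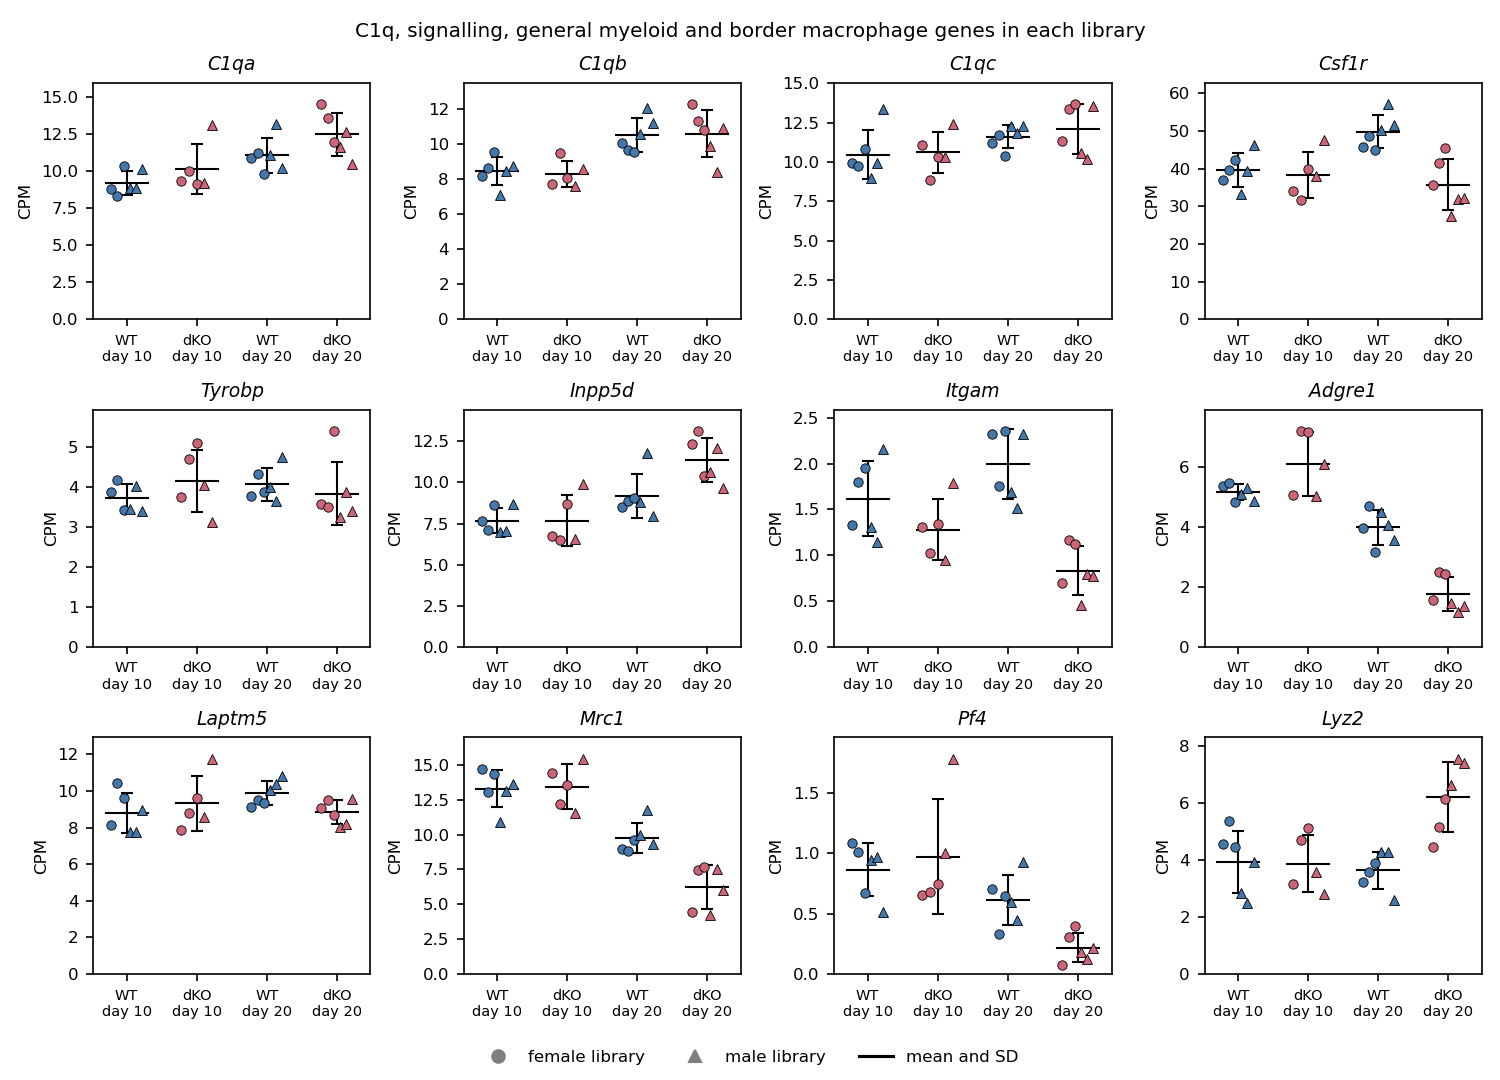
CPM (vertical axis) of 12 members from the other roles in each of the 23 libraries by genotype and day (horizontal axis); circles are female and triangles male libraries, and lines give mean and SD. At day 20 Itgam, Adgre1 and Mrc1 are lower and Lyz2 higher in every dKO library than in any WT library, while the C1q subunits, Tyrobp and Laptm5 overlap.

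Related gene lists gave the following at day 20. Of 40 further microglial genes, 18 fell and 5 rose (median log2 change -0.20). Their summed level was not lower in dKO, at 1652 to 1880 CPM in WT and 1878 to 2219 CPM in dKO. The leukocyte phosphatase gene Ptprc (-1.10 ± 0.16) and Bin2 (-1.29 ± 0.18) fell, and Havcr2, an inhibitory receptor gene, rose (1.32 ± 0.20). Of 14 tested further genes of border macrophages, 10 fell, among them Colec12 (-0.35 ± 0.08), Folr2 (-1.54 ± 0.38), Mgl2 (-1.15 ± 0.28) and Stab1 (-0.31 ± 0.08), and 1 rose. Among 16 tested genes of CSF1R and TGF-beta ligands and signalling, 4 rose and 3 fell; Csf1, a ligand of the CSF1R receptor, rose (0.37 ± 0.06), as did Nrros (0.73 ± 0.11), which anchors latent TGF-beta on microglia, and Smad3 (0.34 ± 0.07), while Tgfbr2 fell (-0.30 ± 0.09). Of 25 tested genes of disease-associated and proliferative-region microglia, 7 fell and 4 rose. B2m (-0.46 ± 0.07) and Fabp5 (-0.33 ± 0.06) fell, and Csf1 and Ch25h (1.55 ± 0.32), a cholesterol hydroxylase gene, rose. The counts of the disease-associated list and of the CSF1R and TGF-beta list lie near the shares of all genes at that day (19.5% lower, 19.4% higher) and set neither list apart. Several of these genes are also expressed by other brain cells. Of 10 genes in each list of other brain cells, 3 astrocyte genes rose and 3 fell, 2 oligodendrocyte and 2 neuronal genes fell, no hindbrain gene was called, and 5 proliferation genes fell. Of 9 tested forebrain genes 1 fell. At day 10, 4 of 10 oligodendrocyte genes were called lower and 2 of 10 neuronal genes higher. Of 9 forebrain genes 3 were then higher and 1 lower, and no astrocyte or hindbrain gene was called. Over all genes 1.91% were lower and 3.88% higher at that age. The part of these differences in the day 10 results was not tested.

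At day 10 no member was called. Over all genes tested 1.91% were lower and 3.88% higher at that age, and DESeq2 called no member either. Those shares, 413 and 841 genes, depended on single libraries. Leaving out dKO male replicate 1 or 2 leaves 1 dKO male library at that age, so no counts are given for those fits. The lower and higher counts were 22 and 44 without WT male replicate 1 and 1028 and 1546 without WT male replicate 3. Without WT female replicate 1 they were 230 and 373, and without WT female replicate 2 they were 240 and 412. Without dKO female replicate 1, 2 or 3 of day 10 they were 915 and 1290, 62 and 148, or 66 and 155, and when only the day 10 groups were fitted they were 2 and 4. Log2 changes ran from -0.25 (Selplg) to 0.28 (Fcrls), with a median of 0.05 against 0.01 over all genes. Fcrls alone had an unadjusted p under 0.05: it was at 10.8, 12.4 and 13.2 CPM in WT and 12.6, 14.0 and 18.0 CPM in dKO, with overlapping genotypes (log2 change 0.28 ± 0.11, adjusted p = 0.108). P2ry12, at 12.6, 14.3 and 20.0 CPM in WT and 10.7, 14.6 and 21.1 CPM in dKO, had a log2 change of 0.05 ± 0.14. Libraries overlapped for all 33 members; over all genes 0.947% separated with dKO lower and 1.04% with dKO higher. Without dKO male replicate 1 of day 10, which leaves 1 dKO male library, the log2 changes of Fcrls and Hpgds were 0.37 and 0.33.

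The genotype by day interaction asks whether the difference between dKO and WT changed from day 10 to day 20. It was called for 19 members, 18 with a more negative difference at day 20 and 1, Lyz2, with a more positive one (0.75 ± 0.21, adjusted p = 0.0110). Over all genes 14.9% were called in the negative and 13.8% in the positive direction. The greatest interactions were those of Fcrls (-3.22 ± 0.19, adjusted p = 5.87e-10), Pf4 (-1.72 ± 0.44, adjusted p = 0.00577), P2ry12 (-1.71 ± 0.20, adjusted p = 5.05e-06), Adgre1 (-1.46 ± 0.20, adjusted p = 1.82e-05) and Gpr34 (-1.43 ± 0.28, adjusted p = 0.000744). The smallest was that of the Fc receptor gene Fcgr3 (0.01 ± 0.22). Its levels overlapped between genotypes at both ages, with medians of 3.75 CPM in WT and 4.45 CPM in dKO at day 10 and of 4.60 and 5.39 CPM at day 20. The interactions of C1qc (-0.02 ± 0.14), C1qa (0.03 ± 0.13) and C1qb (0.04 ± 0.12) were also near 0. Of the 9 receptors, 8 had a called interaction, the exception being Slco2b1 (-0.27 ± 0.13, adjusted p = 0.140). The Hpgds call was lost with both strands counted together (-0.31). Leaving out dKO male replicate 1 or 2 of day 10 leaves 1 dKO male library at that day. Without replicate 2 the interaction was 0.48 for Inpp5d, -0.68 for Siglech, -0.70 for Selplg, -0.79 for Itgam and -0.53 for Ly86. Without replicate 1 it was -0.59 for Trem2, -0.39 for Laptm5 and -0.67 for Fcer1g. The call of Selplg was lost without dKO female replicate 1 of day 10 (-0.62) or dKO male replicate 1 of day 20 (-0.74). It was also lost with no filter on low counts (-0.78). Trem2 was called without any of several other single libraries, and Slco2b1 without WT male replicate 3 of day 10 (-0.34).

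Within each genotype the members took different courses with age. These comparisons use the same libraries as the genotype comparisons, so their values are set side by side only. From day 10 to day 20, WT brain gained 7 members and lost 3, where 26.1% of all genes were higher and 25.3% lower. Selplg rose most in WT, from 2.78, 3.88 and 6.11 CPM to 8.43, 9.12 and 10.2 CPM (log2 change 1.16 ± 0.16, adjusted p = 2.12e-06), with no library shared between the ages. Tmem119 (0.40), Cd163 (0.39), Csf1r (0.33), C1qb (0.32), Sall1 (0.31) and C1qa (0.26) rose as well, and Mrc1 (-0.44), Adgre1 (-0.36) and Fcrls (-0.28) fell. In dKO brain 5 members rose and 17 fell, where 30.3% of all genes were higher and 31.2% lower. Fcrls (-3.50 ± 0.15), Pf4 (-2.25 ± 0.36), Adgre1 (-1.83 ± 0.15), P2ry12 (-1.53 ± 0.15) and Aif1 (-1.43 ± 0.22) fell most with age in dKO. Cd163 (0.79 ± 0.18), Lyz2 (0.72 ± 0.15), Inpp5d (0.55 ± 0.12), C1qb (0.36 ± 0.09) and C1qa (0.29 ± 0.10) rose. C1qb thus rose with age in both genotypes, under every alternative run. The rise of C1qa did not hold under all of them. The log2 change of C1qa in dKO was 0.17 without dKO male replicate 1 of day 10, which leaves 1 dKO male library at that age. In WT its call was lost without WT female replicate 2 (0.23) or WT male replicate 1 (0.24) of day 10. It was also lost without WT female replicate 2 (0.24) or WT male replicate 2 (0.21) of day 20. Selplg in dKO had a log2 change of 0.36 ± 0.21 (adjusted p = 0.134), and was called higher without dKO female replicate 1 of day 10 (0.53). In WT, 5 of the 10 calls, those of Selplg, Csf1r, C1qb, Adgre1 and Mrc1, held in every alternative. Those of Tmem119, Sall1, Cd163 and Fcrls were each lost without any of several single WT libraries, with log2 changes of 0.28 to 0.36, 0.20 to 0.30, 0.31 to 0.39 and -0.27 to -0.24. In WT the count of 7 became 3 without WT male replicate 1 of day 10 or WT male replicate 2 of day 20, and 4 without WT female replicate 1 of either day.

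By sex at day 20, 7 members fell and none rose in females, where 5.37% of all genes were lower and 5.33% higher. At an unadjusted p under 0.05 edgeR gave 15 lower and 5 higher members in females, and DESeq2 called 7 lower and 0 higher. Shares of all genes at that unadjusted p or in DESeq2 are not given here. The 5.37% and 5.33% are of adjusted edgeR calls and are no measure for these counts. The 7 called by edgeR were Fcrls, P2ry12, Gpr34, Adgre1, Itgam, Olfml3 and Hpgds. In males 20 members fell and 1, Lyz2, rose, where 17.5% of all genes were lower and 17.8% higher. Fcrls had a log2 change of -2.21 ± 0.19 in females and -3.66 ± 0.22 in males. P2ry12 had -1.25 ± 0.19 and -2.09 ± 0.21, Gpr34 -0.84 ± 0.26 and -2.16 ± 0.30, Selplg -0.47 ± 0.22 and -1.62 ± 0.24, and Cx3cr1 -0.35 ± 0.15 and -1.13 ± 0.15. The median over the 9 receptors was -0.55 in females and -1.26 in males, and over the 10 general myeloid genes -0.30 and -0.51. For the C1q subunits the changes were 0.20 to 0.34 in females and -0.21 to 0.03 in males, none of them called. When only the female day 20 groups were fitted, 13 members were called lower and 4 higher in females, while the counts over all genes went from 1163 lower and 1154 higher to 2066 and 1944. In females 2 members were called lower without dKO female replicate 1 of day 20 and 3 without WT female replicate 1 of day 20; over all genes these fits called 601 lower and 617 higher, and 560 lower and 550 higher. Without WT female replicate 2 of day 20 the counts over all genes were 693 and 661, and without dKO female replicate 2 of day 20 the lower count was 761. Without dKO male replicate 2 of day 10, the log2 changes in females were 0.46 for Inpp5d, 0.34 for C1qa and 0.59 for Fcgr3. That fit leaves 1 dKO male library at day 10.

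The test of the difference between the sexes, the genotype by sex interaction at day 20, called no member in edgeR, and 0 of the 21657 genes in either direction (0%). At an unadjusted p under 0.05 it held for 12 members, all with the more negative change in males. That sign was found for 29 of the 33 members and for 10920 of the 21657 genes. The number of all genes passing that unadjusted p is not given here, so the 12 members cannot be set against a share. The smallest adjusted p-values were those of Fcrls (difference -1.44 ± 0.33, adjusted p = 0.0665), Csf1r (-0.60 ± 0.16, adjusted p = 0.0963) and Cx3cr1 (-0.78 ± 0.21, adjusted p = 0.0988). DESeq2 called 4 members, Fcrls, Cx3cr1, Selplg and Csf1r, and the fit restricted to the day 20 groups called these 4 and P2ry12. Counts over all genes in the DESeq2 and restricted fits are not given here, so these member calls cannot be set against a share. Whether a greater fall in males was called therefore depended on the test used.

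**Figure D5:**
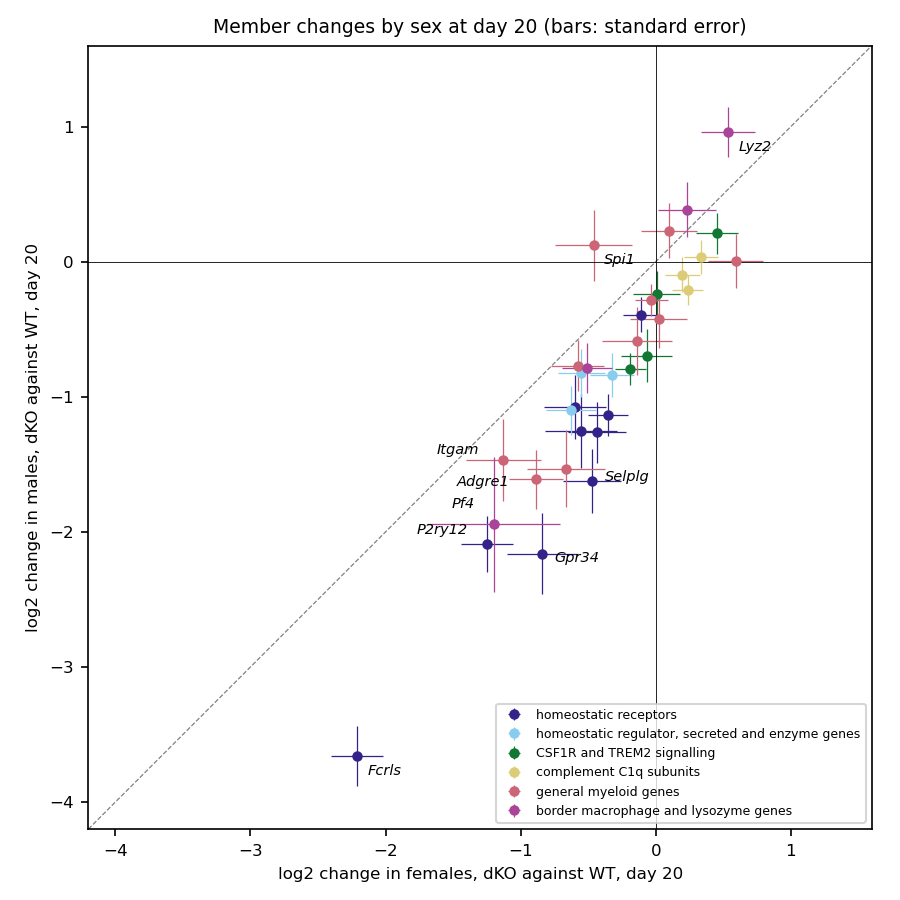
Log2 change of dKO against WT at day 20 in females (horizontal axis) and males (vertical axis) for the 33 members, coloured by role, with standard errors; the dashed line marks equal change. Most points lie below the line, with Fcrls at -2.21 in females and -3.66 in males.

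Levels in single libraries of day 20 were compared between the sexes by their values only. Fcrls in the dKO females of day 20 was at 1.55, 1.90 and 3.03 CPM and in the dKO males at 0.634, 0.709 and 1.15 CPM; in WT females it was at 8.86, 9.51 and 10.2 CPM and in WT males at 9.15, 9.70 and 12.5 CPM. P2ry12 was at 5.60, 7.50 and 8.96 CPM in the dKO females and 3.67, 4.01 and 4.30 CPM in the dKO males. Every dKO male library was below every dKO female library for both genes. The same held for 6 of the 9 receptors and for 9 of the 33 members, and the reverse for 1 member, Lyz2; over all genes 12.5% separated with dKO males lower and 11.9% with dKO males higher. In WT no member had all male libraries below all female libraries and 5 had all male libraries above, where 8.10% and 7.37% of all genes did so. The homeostatic minus general difference was 1.05 to 1.24 in the dKO females and 0.33 to 0.81 in the dKO males of day 20.

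The library of dKO male replicate 1 of day 20 had the lowest level of the 6 dKO libraries for all 9 receptors and for 17 of the 33 members, and it was lowest for 24.6% of all genes tested. Without it 19 members were called lower and 2 higher at day 20 in both sexes. Leaving out any other single library gave 18 to 20 lower and 1 to 3 higher. Of the 22 members called at day 20, 18 kept their call and direction in all 31 alternative analyses, the exceptions being Hpgds, Slco2b1, Trem2 and Inpp5d.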

How the data were processed

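Messenger RNA was measured by stranded RNA sequencing in 24 libraries of 8 groups. The deposited files hold raw read counts per gene, made by the authors with STAR 2.5.2b; the build was GRCm38.p5 and HTSeq is listed as well, all per the submitters' processing notes. The annotation used is not given in the sources used here. The reverse-strand column was used, since forward-strand counts were 5.22 to 7.46% as many. The 4 entries that name no gene held 58.3 to 62.5% of reads and stayed out of library sizes. Identifiers were named through GENCODE (50462 of 50686 matched). Of the 24 libraries, 23 with at least 1000000 gene counts were used; no 2 libraries held identical values. Over all groups, edgeR 4.0.16 (R 4.3.3) was fitted with TMM scaling, filterByExpr and the quasi-likelihood test, leaving 21657 genes, with Benjamini-Hochberg adjustment at 0.05; the fit was tested on simulated data. CPM are counts per 1000000 of the scaled library size. Genes given with levels were those with the smallest p at day 20 in each role and the largest and smallest interaction with day; of other lists, up to 4 called genes, of which 1 is not reported here. The members and lists were chosen with earlier results of these data known. Alternatives were RLE scaling, other filters, both strands together, DESeq2 1.42.0, all 24 libraries, only the groups compared, each library left out, and, chosen after seeing the data, the earlier edgeR dispersion estimate.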

Additional observations from a re-analysis of the deposited data

Results flagged for a closer look

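For 19 of the 33 members the difference between dKO and WT differed between day 10 and day 20 in edgeR's interaction test with Benjamini-Hochberg adjustment over all genes. The log2 difference of differences for the homeostatic receptors was -3.22 for Fcrls, -1.71 for P2ry12, -1.43 for Gpr34, -0.92 for P2ry13, -0.83 for Siglech, -0.82 for Cx3cr1, -0.79 for Tmem119 and -0.79 for Selplg. For the other homeostatic genes it was -0.95 for Olfml3, -0.86 for Hpgds and -0.62 for Sall1, and for Csf1r it was -0.47. General myeloid genes gave -1.46 for Adgre1, -1.24 for Aif1, -1.07 for Itgam and -0.73 for Ly86. Pf4 gave -1.72, Mrc1 -0.68 and Lyz2 0.75. A negative value means a lower dKO level relative to WT at day 20 than at day 10.

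In 6 of 132 combinations of member, genotype and day, a single library stood far from the others of its group, where chance flags about 1 in 20. At day 20 in WT, Trem2 in female replicate 1 was at 2.70 CPM (the others at 3.29 to 3.50), Inpp5d in male replicate 2 was at 11.8 CPM (the others at 7.98 to 9.05) and Aif1 in female replicate 3 was at 0.831 CPM (the others at 1.37 to 1.75). Tyrobp in dKO female replicate 3 of day 20 was at 5.40 CPM, with the others at 3.26 to 3.88. At day 10, C1qa in dKO male replicate 2 was at 13.1 CPM (the others at 9.14 to 9.99), and Ly86 in WT male replicate 3 was at 4.43 CPM (the others at 2.66 to 3.18).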

How the results depend on the processing

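No result changed direction among those called, and of the 22 members called at day 20 in both sexes 18 kept their call in every alternative run for that comparison, and so did, of the 19 with a called interaction with day, 14, and, of the 7 and 21 called in females and males, 2 and 18. When only the groups compared were fitted, 4 members were higher at day 20 in both sexes, 13 were lower and 4 higher in females, and 5 had a more negative change in males. For the interaction with sex at day 20, DESeq2 called 4 members and the fit without a filter on low counts 1. Counts over all genes in these fits of that interaction are not given here. Leaving out 1 library in turn gave 1 to 3 members higher at day 20 in both sexes and 2 to 8 lower in females. It also gave 0 to 1 with a negative interaction with sex at day 20 and 3 to 10 higher with age in WT. Shares of all genes beside these ranges are not given here, so they describe the members only. Without dKO male replicate 1 or 2 of day 10, 1 dKO male library remains at that day. Ranges that rest on those fits, at day 10, for the interaction with day and for higher members in females, are not given. The runs behind the kept calls above include those fits. The receptor minus general difference with medians of members was 0.85 in dKO and 0.96 in WT at day 10, and 0.92 in dKO and 1.68 in WT at day 20, so the dKO mean was not lower at day 20 than at day 10. With both strands counted it was 1.52 in dKO and 1.58 in WT at day 10. At day 20 it was then 1.20 in dKO (0.93 to 1.47) and 1.80 in WT (1.64 to 1.92), a narrower gap, still without overlap. The causes of these shifts were not tested. The interaction with day uses all groups, so a fit of only the groups compared does not exist for it. No paired analysis was possible because the labels give no replicate numbers; those used here follow the order of deposit and pair nothing. Counts of members near 1 CPM or below, such as Pf4, Itgam and Aif1, limit their precision.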
